A study of Mus musculus with 2 samples.

Results

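Cluster 22 is a small group of late pachytene spermatocytes from mouse testis, taken as every cell that the authors' cell table both names late pachytene (lP) and assigns to cluster number 22. It held 336 of the 2772 late pachytene cells and of the 17253 annotated cells, 234 of them wild type and 102 from the library labelled Zfp541-/-, called knockout-labelled cells from here on. No cell of cluster 22 carried another stage name. The other late pachytene clusters were cluster 0, with 486 and 959 cells, and cluster 5, with 107 and 884, in the same order. Cluster 22 is set beside these clusters within each library, and its cells are then compared between the libraries.

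The study compared single-cell transcriptomes of germ cells from adult C57BL/6 mice, wild type or Zfp541-/-, with 1 library per genotype. Zfp541 is named for its zinc fingers and acts in spermatocytes. Per the labels' protocols, testes were digested with enzymes, flow cytometry was used to collect tetraploid germ cells, and these went onto the 10x Chromium system, which counts unique molecular identifiers (UMIs) near the 3' end of each polyadenylated transcript. The sample titles say whole testis where the source field says tetraploid germ cells. The authors' cell table names 333, 619 and 393 wild-type cells as round and 111 as elongated spermatids, which are haploid. By these names the annotated wild-type cells were not all tetraploid. Nothing in the labels gives the allele, the deleted part of the gene or the number of mice behind each library.

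In pachytene, the homologous chromosomes are fully paired, recombination is completed and the sex chromosomes are silenced in a separate nuclear domain. Transcription of the autosomes rises to a high level in mid and late pachytene, and many transcripts for spermatid structures are made then and stored. Nuclear transcripts such as Malat1, a long non-coding RNA of nuclear speckles, stay in the nucleus, whereas most messenger RNA of ribosomal proteins and of metabolic enzymes is cytoplasmic.

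Wild-type cluster 22 cells had a median of 8392 UMIs and 2662.5 genes, and knockout-labelled ones of 19561.5 UMIs and 4042.5 genes. Clusters 0 and 5 were as far apart between libraries, with medians of 9535 and 9406 UMIs in wild-type and 23116 and 24738 in knockout-labelled cells. The median UMI number of cluster 22 was therefore 2.33 times as high in knockout-labelled cells, against 2.42 and 2.63 times in clusters 0 and 5. Summed over its cells, cluster 22 held 2145664 wild-type and 2009756 knockout-labelled UMIs, so that 1 UMI was worth 0.466 and 0.498 counts per 1000000 UMIs (CPM). No barcode of cluster 22 occurred in both libraries, among 17 that annotated cells shared. With 1 library per genotype there was no replicate and no test, and intervals cover 95% counting error only. The clusters were made from the same genes that are compared here, so a ratio between clusters is a description.

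Markers of late pachytene were present in cluster 22. Ldhc, the lactate dehydrogenase of male germ cells on chromosome 7 (GRCm38, 46861203 to 46878142), was at 9314, 8706 and 8117 CPM in clusters 22, 0 and 5 of the wild type and at 10256, 8928 and 7969 CPM in knockout-labelled cells. In both libraries cluster 22 had the highest Ldhc level of all clusters with at least 50 cells, 19 in wild-type and 15 in knockout-labelled cells. Insl6, an insulin-like peptide gene of male germ cells on chromosome 19 (29321344 to 29325356), was at 599, 303 and 187 CPM in wild-type and at 217, 120 and 89.8 CPM in knockout-labelled cells. Its level was at least 2-fold higher in cluster 22 than in the mean of clusters 0 and 5 in both, with log2 ratios of 1.29 and 1.06. Piwil1, the piRNA-binding protein of pachytene cells on chromosome 5 (128702524 to 128755474), went the other way, at 416, 593 and 748 CPM in wild-type and 340, 553 and 857 CPM in knockout-labelled cells.

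Markers of somatic and red cells were low, whereas some marker lists of other germ cell stages were not. None of the 10 genes with the highest ratio of cluster 22 to all other annotated cells of its library was a pachytene marker, and none was a marker of another stage, in either library, so this check does not bear on the stage name. Among the 10 were Rnf8, a ubiquitin ligase of DNA damage signalling, at 34.5 CPM against 8.75 CPM in all other wild-type cells, and Slxl1, an X-linked spermatid gene, at 11.9 against 2.80 CPM in knockout-labelled cells. Summed markers of Sertoli, Leydig, peritubular myoid, endothelial, macrophage and red cells each stayed at or below 6.06 CPM in cluster 22, and every red cell marker was at 0. Sox9, Adgre1 and Hbb-bs, which define Sertoli cells, macrophages and red cells, had 0 UMIs in both. Acta2 of myoid cells had 11 wild-type and 0 knockout-labelled UMIs, Insl3 of Leydig cells 2 and 0, and Pecam1 of endothelium 2 and 1. Summed diplotene and division markers were at 1620, 1434 and 1270 CPM in wild-type clusters 22, 0 and 5. In the knockout-labelled ones they were at 1626, 1373 and 1203 CPM. Of these markers, 8 of 9 measured in wild-type and 4 of 5 in knockout-labelled cells had ratios over clusters 0 and 5 above 0. Leptotene-zygotene markers summed to 1562 and 1323 CPM in cluster 22. Across genes of at least 10 CPM in cluster 22, the wild-type profile correlated most with mid pachytene (mP) cluster 2 (Pearson's r = 0.970 over 6228 genes), ahead of diplotene (D) cluster 9 and late pachytene cluster 0, both at 0.958. In knockout-labelled cells cluster 0 came first, at 0.969, and mid pachytene cluster 2 next, at 0.962, over 6323 genes. These are correlations across genes of summed cells, not across samples.

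Cluster 22 was set apart by what its cells had little of. Among 7005 genes of at least 10 CPM in cluster 22 or in the mean of clusters 0 and 5 of the wild type, 1207 were at least 2-fold lower in cluster 22 (17.2%) and 43 at least 2-fold higher (0.614%). Of 7024 such genes in knockout-labelled cells, 851 were at least 2-fold lower (12.1%) and 29 at least 2-fold higher (0.413%). The median log2 ratio over all these genes was -0.20 in wild-type and -0.18 in knockout-labelled cells. These counts move with the settings: with no CPM minimum the knockout-labelled counts were 412 higher and 1800 lower, and against cluster 0 alone 316 were lower. The wild-type counts were 476 lower at a minimum of 50 CPM and 717 lower against cluster 0 alone. For 1072 of the 1207 and 822 of the 851 lower genes, the interval lay below no change against cluster 0 and against cluster 5. For the higher genes the interval lay above no change for 31 of 43 and 28 of 29, at a median level of 18.6 and 14.9 CPM. All these genes were picked by their ratio from the same counts, so these shares are a description and cannot serve as a check on the calls.

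Many of the low genes were shared between the libraries. In total 494 genes were at least 2-fold lower in both, which is 40.9% of the wild-type and 58.0% of the knockout-labelled set, and 4 were at least 2-fold higher in both, which is 9.30% and 13.8%. No gene past the fold in both libraries had opposite signs. Across the 6119 genes measured in both libraries the log2 ratios had a Pearson's r of 0.81, given as a description, since the libraries were clustered together.

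**Figure D1:**
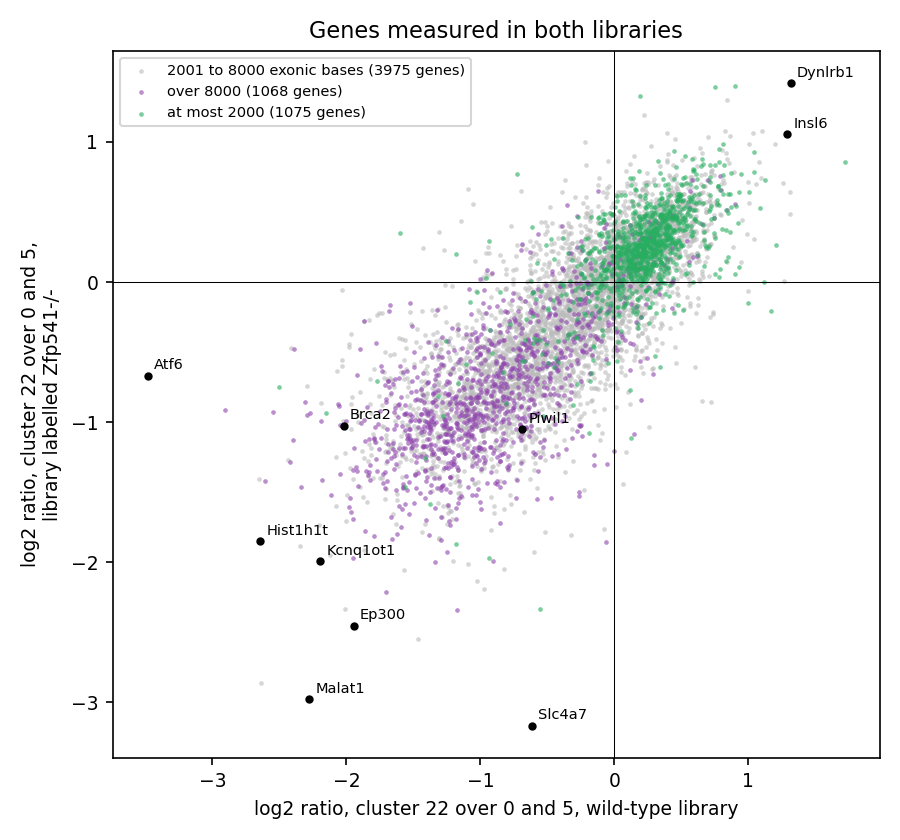
Log2 ratio of cluster 22 over the mean of clusters 0 and 5 in the wild-type library (x axis) and in the library labelled Zfp541-/- (y axis), 1 point per gene of at least 10 CPM in both comparisons, coloured by the length of all exons together. Genes of over 8000 exonic bases lie mostly in the lower left and genes of at most 2000 mostly just above 0 on both axes; Malat1 is at -2.28 and -2.98, and Insl6 at 1.29 and 1.06.

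Genes with much annotated exon sequence stood out among what was low. Among genes with over 8000 bases of exon in GENCODE M21, the median log2 ratio of cluster 22 over clusters 0 and 5 was -0.92 over 1186 genes in wild-type and -0.81 over 1269 in knockout-labelled cells, and 44.7% and 32.9% of them were at least 2-fold lower. Genes of 1000 to 2000 exonic bases had medians of 0.22 and 0.24, and 1.10% and 0.33% of them were at least 2-fold lower. The genes low in both libraries had a median of 8357 exonic bases, against 4211 over the 6118 genes measured in both that have a length, and 54.0% of them exceeded 8000 bases against 17.5%. The gradient was much the same at all gene levels: for genes of over 8000 exonic bases, the median ratio in wild-type cells was -0.89 at 10 to 20 CPM, -0.91 at 20 to 50, -0.96 at 50 to 200 and -0.94 at 200 CPM and over.

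Intron length went with the ratio as well. Genes with over 50000 intronic bases had medians of -0.84 and -0.71, genes with introns of up to 5000 bases in all had 0.19 in both libraries, and genes with no intron had 0.01 and 0.11. Taken jointly, genes of at most 2000 exonic bases stayed between 0.19 and 0.25 at every intron length in both libraries. Genes of over 8000 exonic bases ran from -0.33 with up to 5000 intronic bases to -1.06 with over 50000 in wild-type cells, and from -0.28 to -0.94 in knockout-labelled cells. Between clusters 5 and 0 the gradient was smaller and had the other sign relative to cluster 0, with medians of 0.34 and 0.42 for cluster 5 over cluster 0 among genes of over 8000 exonic bases. Cluster 22 thus lay on the far side of cluster 0 from cluster 5 for long genes.

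**Figure D2:**
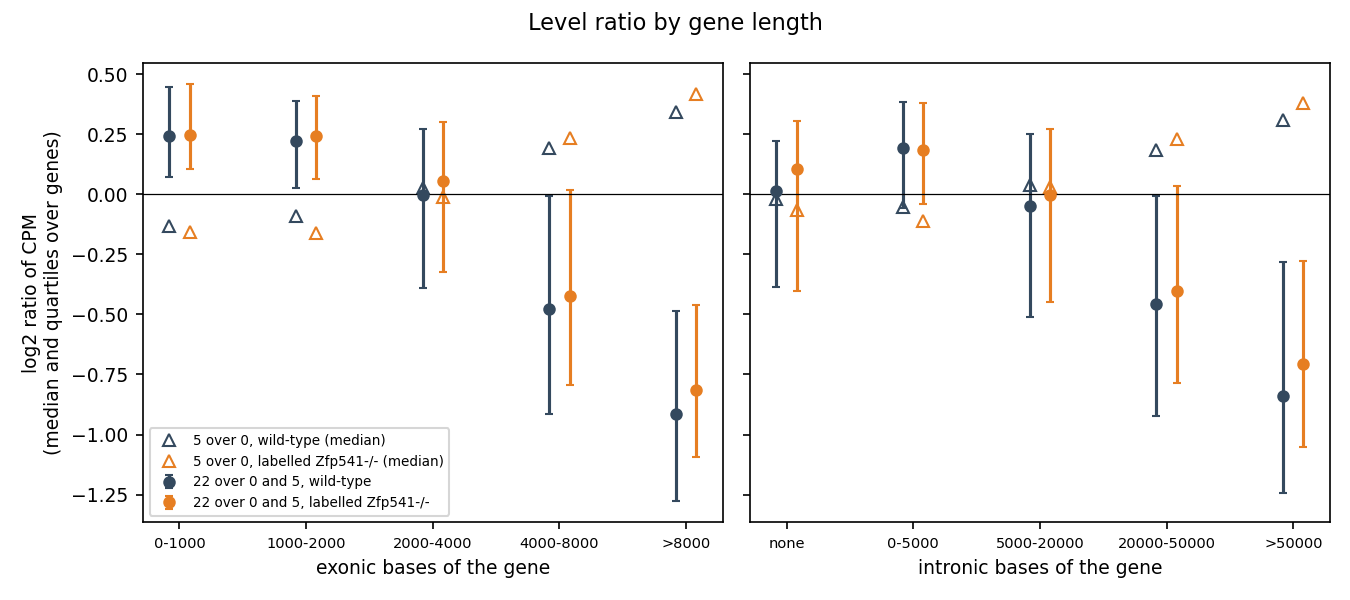
Log2 ratio of CPM by exonic length (left) and intronic length (right) of the gene, in bases: filled points are medians over genes of cluster 22 over clusters 0 and 5 with bars from the lower to the upper quartile, and open triangles are medians of cluster 5 over cluster 0. In the wild-type library the medians of cluster 22 fall from 0.24 for genes of at most 1000 exonic bases to -0.92 for genes of over 8000, and in the library labelled Zfp541-/- from 0.25 to -0.81.

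The shift was present cell by cell. The median cluster 22 cell had 5.45% of its UMIs on genes of over 8000 exonic bases in wild-type cells, against 8.32% in cluster 0 and 9.90% in cluster 5. In knockout-labelled cells the medians were 6.36%, 8.96% and 11.1%. Of the cluster 22 cells, 97.4% of the wild-type and 93.1% of the knockout-labelled ones lay below the 10th percentile of cluster 0, and 100% of both lay below that of cluster 5.

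Place along the authors' pseudotime, a whole-number order without unit, overlapped between clusters 22 and 0. The median was -11354 in cluster 22, -11570 in cluster 0 and -14614 in cluster 5 of the wild type, and -11794, -12215 and -14053 in knockout-labelled cells. Within the range that holds the middle 80% of wild-type cluster 22 cells, from -12886 to -10356, cluster 0 cells still had a median of 8.54% of UMIs on long genes over 273 cells, against 5.40% over 186 cells of cluster 22. The matching values in knockout-labelled cells were 9.03% over 691 cells and 6.33% over 80 cells.

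**Figure D3:**
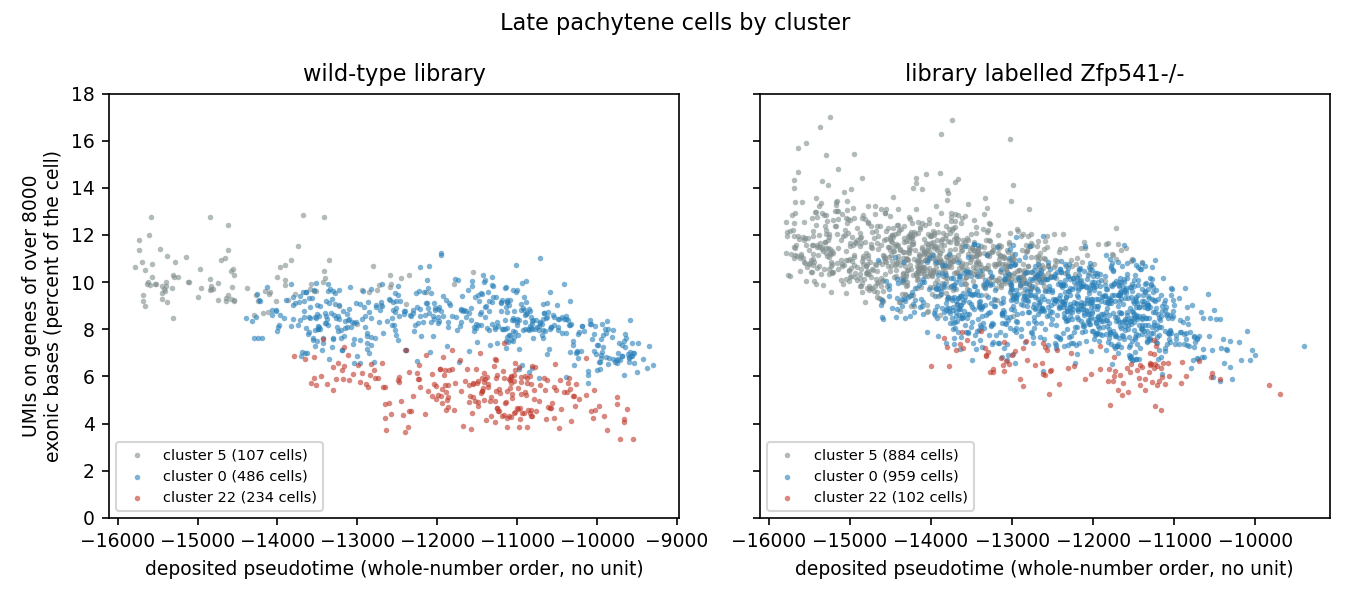
Percent of each cell's UMIs on genes of over 8000 exonic bases (y axis) against the deposited pseudotime (x axis, no unit), 1 point per late pachytene cell, wild-type library on the left and library labelled Zfp541-/- on the right. Cluster 22 forms the lowest band in both panels, with medians of 5.45% and 6.36%, at pseudotimes that cluster 0 cells also occupy.

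Fewer different genes were seen in cluster 22 at equal depth. After each cell was thinned to 7100 UMIs, with 22 of 234 wild-type cluster 22 cells left out as shallower and none of the knockout-labelled ones, the median was 2437.5 genes in wild-type and 2469 in the knockout-labelled cluster 22. Cluster 0 had 2639 and 2648.5, and cluster 5 had 2752 and 2762. Below the 10th percentile of cluster 0 were 95.8% of the wild-type and 80.4% of the knockout-labelled cluster 22 cells. The deposited percent of UMIs from ribosomal protein genes was higher in cluster 22, with medians of 11.3%, 10.3% and 9.83% in wild-type clusters 22, 0 and 5 and of 13.4%, 12.2% and 11.8% in the knockout-labelled ones. The deposited mitochondrial percent was spread more widely in wild-type cluster 22, from 0.44% to 1.84% between its 10th and 90th percentiles, against 0.99% to 1.62% in cluster 0. It was not wider in the knockout-labelled cluster 22, at 0.85% to 3.04% against 1.24% to 3.45%.

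Malat1 and Kcnq1ot1 were low in both libraries and were the genes past the fold among 4 measured in the nuclear long RNA list in each. In wild-type cluster 22, Malat1 (chromosome 19, 5795690 to 5802672) had 401 UMIs or 187 CPM, against 653 in cluster 0 and 1161 in cluster 5. In knockout-labelled cells it was at 74.1 CPM (149 UMIs), against 325 and 845. Its log2 ratio to cluster 0 was -1.80 (interval -1.96 to -1.66) and -2.13 (-2.38 to -1.90). For the median cell of cluster 22, Malat1 was at 115 CPM when wild type and 42.9 CPM when knockout-labelled, whereas the median cell of cluster 0 had 613 and 276 CPM. Kcnq1ot1, an antisense RNA that silences imprinted genes in cis, on chromosome 7 (143203458 to 143296549), was at 8.39, 26.7 and 51.6 CPM in clusters 22, 0 and 5 of the wild type and at 5.97, 15.8 and 33.6 CPM in knockout-labelled cells. Neat1, the scaffold RNA of paraspeckles, was at 15.4, 14.5 and 14.9 CPM in wild-type clusters 22, 0 and 5 and at 11.4, 10.9 and 19.7 CPM in the knockout-labelled ones. The fourth measured gene was Mirg in wild-type cells, with a ratio above 0, and Meg3 in knockout-labelled cells, with a log2 ratio of 0.59. Long intergenic RNAs as a class were not low: their median ratio was 0.15 over 255 genes and 0.12 over 173.

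Clusters of other stages had values like those of cluster 22. In wild-type cells the percent of UMIs on long genes was 5.45% over cluster 22 as a whole, 6.71% in mid pachytene cluster 2, 5.03% in diplotene cluster 9 and 5.04% in cluster 8 of the first meiotic division (MI). Each of these lay below the other clusters of its own stage, and each had the highest Insl6 level of its stage, at 405, 900 and 1035 CPM in clusters 2, 9 and 8. Against diplotene cluster 9, cluster 22 had a median log2 ratio of 0.25 over 969 genes of over 8000 exonic bases, and against mid pachytene cluster 2 it had -0.40 over 1077. Malat1 was at 519, 99.2 and 54.5 CPM in clusters 2, 9 and 8. In knockout-labelled cells, cluster 22 had the lowest percent on long genes (6.37%), the lowest Malat1 and the lowest Kcnq1ot1 of all 15 clusters of at least 50 cells. That library held 13 annotated diplotene cells and none of the first meiotic division, so the later clusters with low values have no counterpart there.

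**Figure D4:**
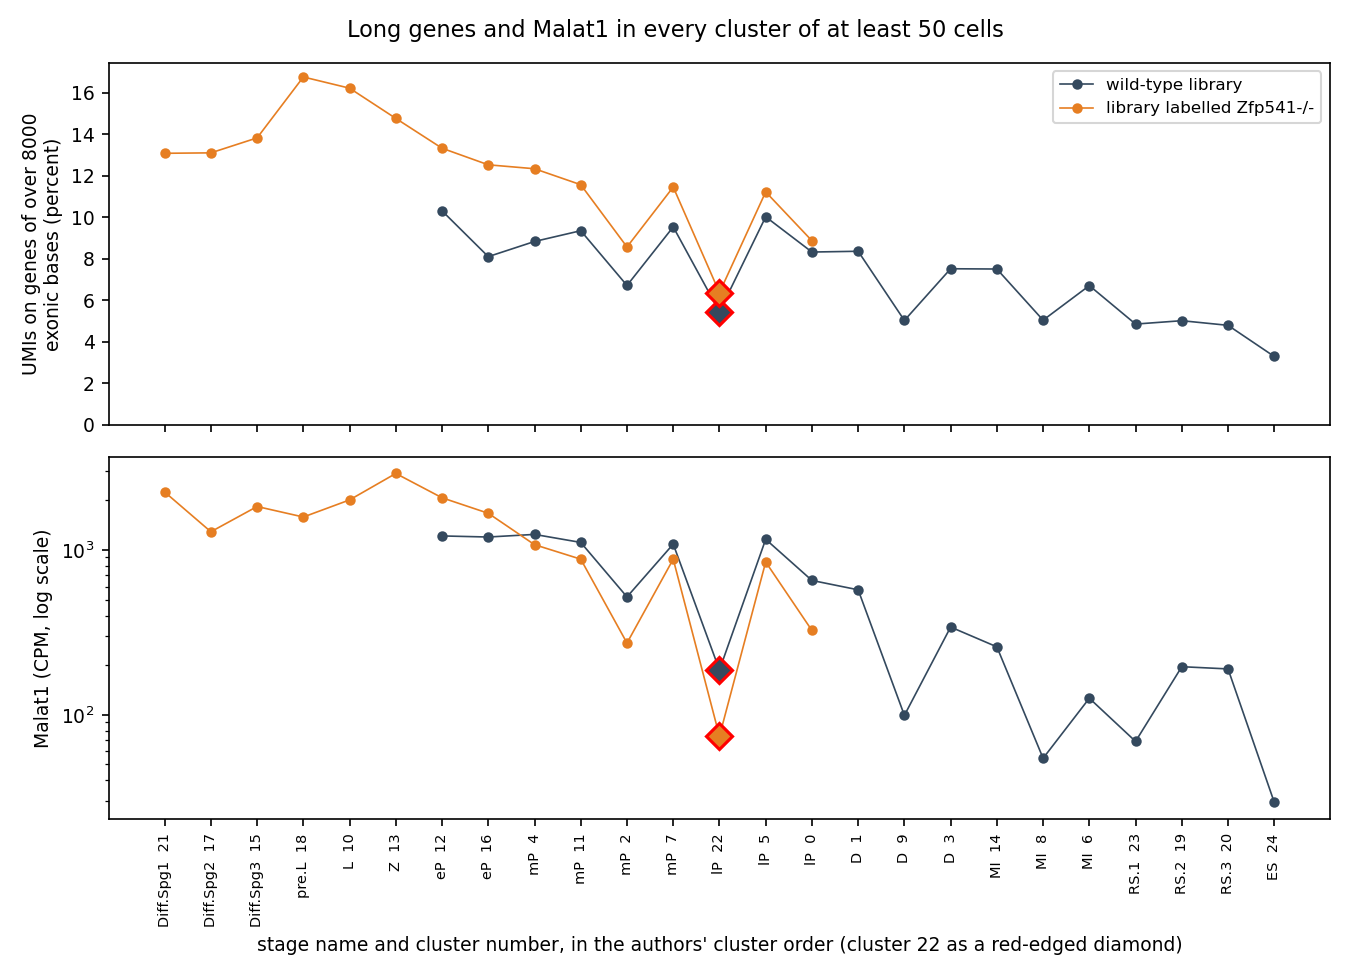
Percent of UMIs on genes of over 8000 exonic bases (top) and Malat1 level in CPM on a log scale (bottom), summed over each cluster of at least 50 cells, with clusters in the authors' order on the x axis, 1 line per library. Cluster 22, the red-edged diamond, sits below its neighbours in the order in both lines, at 5.45% and 187 CPM for wild type and 6.37% and 74.1 CPM for Zfp541-/-.

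A short list of genes was higher in cluster 22. Insl6 was joined in both libraries by Dynlrb1, a light chain of cytoplasmic dynein, at 16.3, 8.70 and 3.97 CPM in wild-type clusters 22, 0 and 5 and at 49.3, 21.2 and 15.7 CPM in the knockout-labelled ones. Nprl2, a subunit of the GATOR1 complex that restrains mTORC1, and Rogdi were the other genes past the fold in both. Nprl2 had log2 ratios to cluster 0 of 0.83 (interval 0.55 to 1.12) in wild-type and 0.93 (0.65 to 1.20) in knockout-labelled cells, and Rogdi had 1.09 (0.79 to 1.39) and 0.99 (0.61 to 1.34). Of the genes higher in wild-type cells, 14 were past the fold against clusters 0 and 5 separately with at least 20 UMIs. They included Smim24, a small membrane protein gene, at 1902, 948 and 800 CPM, Mrpl37, of the mitochondrial ribosome, at 185, 85.4 and 68.5 CPM, and the antisense transcript 1700018L02Rik on chromosome 19, at 581, 286 and 220 CPM. Creb3, a membrane-bound transcription factor, was at 27.03, 12.4 and 8.93 CPM, and Mospd3 was at 26.1, 12.4 and 5.95 CPM.

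In knockout-labelled cells Smim24 and Mrpl37 leaned the same way without reaching the fold, with log2 ratios over clusters 0 and 5 of 0.73 and 0.71. Syt5, a synaptotagmin, had the largest wild-type ratio, at 18.6, 5.80 and 4.96 CPM, but rested on 40 UMIs, and in knockout-labelled cells it was at 2.49, 2.02 and 2.17 CPM. Dsp, which encodes the desmosome protein desmoplakin, was at 14.0, 5.80 and 4.96 CPM in the wild-type clusters and had no UMI in knockout-labelled cluster 22. Only 11 genes met the same rule in knockout-labelled cells. Prss50, a testis protease-like gene, was at 12.4, 5.71 and 2.90 CPM there, and Prdx4, an X-linked peroxiredoxin of the endoplasmic reticulum, was at 15.4, 7.20 and 3.58 CPM. Terf2ip, of the telomere-binding shelterin complex, was at 12.4, 4.92 and 4.94 CPM in knockout-labelled cells and at 2.80, 9.12 and 7.94 CPM in wild-type cells, so its direction differed between libraries on 25 and 6 UMIs. Pnldc1, the exonuclease that trims piRNA ends, was at 12.4, 5.40 and 5.80 CPM in the knockout-labelled and 4.19, 3.11 and 8.93 CPM in wild-type cells. Loxl2, a lysyl oxidase, was at 28.9, 12.2 and 14.1 CPM in the former and rested on 2 UMIs in wild-type cluster 22. Dynlrb1, Syt5, Dsp and Mospd3, named as higher in wild-type cells, reached 10 CPM in cluster 22. In the mean of clusters 0 and 5 they did not. The same held for Prss50, Prdx4, Terf2ip and Pnldc1 in knockout-labelled cells, so these genes were measured only through the cluster where they were high.

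Gm3448, on chromosome 17, was among the 12 lowest genes of cluster 22 in both libraries. It was at 30.8, 140.5 and 245 CPM in wild-type clusters 22, 0 and 5 and at 33.3, 154 and 334 CPM in the knockout-labelled ones, and it may share reads with near copies. Most other genes at the low end had ratios that differed more between libraries, partly on few UMIs. Hist1h1t, the linker histone of pachytene cells (chromosome 13, 23695814 to 23696725), was at 27.03, 114 and 226 CPM in wild-type clusters 22, 0 and 5 and at 6.47, 14.4 and 34.0 CPM in the knockout-labelled ones. It is a short gene without introns, and it was lower in cluster 22 all the same, with log2 ratios to cluster 0 of -2.07 (interval -2.50 to -1.69) and -1.10 (-2.08 to -0.36). Hist1h2aa and Hist1h2ba, the testis forms of histones H2A and H2B, were at 4.19 and 13.5 CPM in wild-type cluster 22 against 18.9 and 37.7 CPM in cluster 0. In knockout-labelled cells their values were 10.9 and 18.9 CPM against 12.1 and 23.8 CPM.

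Several other genes at the low end are large. Yes1, a kinase of the Src family, was at 4.19, 18.4 and 36.7 CPM in wild-type and at 15.4, 31.8 and 51.0 CPM in knockout-labelled cells. Ep300, a histone acetyltransferase with 14273 exonic bases, was at 3.73, 13.1 and 16.9 CPM and at 3.48, 14.4 and 26.4 CPM. Mga, a transcription factor with 15340 exonic bases, was at 6.52, 15.8 and 27.8 CPM and at 4.48, 15.4 and 28.5 CPM. All 3 were at least 2-fold below cluster 0 and below cluster 5 in both libraries. Atf6, a sensor of endoplasmic reticulum stress, had the lowest wild-type ratio, with 2 UMIs in cluster 22, a log2 ratio to cluster 0 of -3.20 and an interval from -6.59 to -1.58. In knockout-labelled cells Atf6 was at 6.47, 9.22 and 12.1 CPM. Slc4a7, a bicarbonate transporter, had the lowest knockout-labelled ratio, also with 2 UMIs, at -2.73 (interval -6.10 to -1.17) to cluster 0, and was at 14.9, 20.9 and 24.8 CPM in the wild-type clusters. Rb1, the retinoblastoma protein, and Macf1, a linker of actin and microtubules, had 5 and 4 UMIs in wild-type cluster 22, at 2.33 against 9.95 CPM and 1.86 against 11.0 CPM in cluster 0. In knockout-labelled cells Rb1 was at 5.47 against 7.86 CPM and Macf1 at 10.4 against 13.7 CPM in cluster 0. Both intervals of the log2 ratio held 0 there, from -1.55 to 0.35 and from -1.10 to 0.25.

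Gene lists by function are given with the counts at least 2-fold lower or higher and the median log2 ratio, beside the medians of -0.20 and -0.18 over all genes measured and the 17.2% and 12.1% of all genes that were lower in wild-type and in knockout-labelled cells. Of the factors of sex chromosome silencing, 5 of 8 measured genes were at least 2-fold lower in wild-type cells (median -1.11, against 17.2% of all genes) and 2 of 8 in knockout-labelled cells (median -0.88, against 12.1%), where 2 genes are too few to set apart from that share. Mdc1, the mediator that spreads the DNA damage signal over the sex chromosomes, was at 54.1, 115 and 162 CPM in wild-type clusters 22, 0 and 5 and at 67.2, 118 and 210 CPM in the knockout-labelled ones. Topbp1, an activator of the kinase ATR, was at 32.2, 71.7 and 113 CPM and at 54.7, 88.6 and 129 CPM. Setdb1, a histone methyltransferase, was at 18.6, 43.7 and 76.4 CPM and at 43.3, 62.7 and 89.6 CPM. Rnf8 was the other way, at 34.5, 22.6 and 20.8 CPM and at 49.8, 38.8 and 36.3 CPM. Atr (23629), Topbp1 (11226), Mdc1 (7421) and Setdb1 (6853) all have long exon sequence in bases, and whether their level goes beyond what length carries was not tested.

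RNA-handling lists had medians below those of all genes. Of the germ cell translational control genes, 4 of 15 were at least 2-fold lower in wild-type cells (median -0.82) and 5 of 15 in knockout-labelled cells (median -0.64), against 17.2% and 12.1% of all genes. Among them were Eif4g3, a translation initiation factor needed for exit from meiotic prophase, at 85.3, 185 and 217 CPM in wild-type and 95.5, 180 and 261 CPM in knockout-labelled cells, and Pabpc6, an intronless poly(A)-binding protein gene, at 117, 290 and 363 CPM and 140, 266 and 314 CPM. For the piRNA pathway, 3 of 19 were lower in wild-type cells (median -0.61) and 3 of 20 in knockout-labelled cells (median -0.47), counts near the 17.2% and 12.1% of all genes. Tdrd7, a Tudor protein of the chromatoid body, was at 24.2, 47.3 and 59.5 CPM and at 13.9, 34.9 and 47.3 CPM, and was the piRNA gene past the fold in both. Rnf17, also a Tudor protein, was at 81.6, 171 and 227 CPM in wild-type and at 104, 150 and 222 CPM in knockout-labelled cells.

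Among structural lists, the flagellum and axoneme genes had 9 of 31 lower (median -0.59) and 6 of 30 lower (median -0.44), against 17.2% and 12.1% of all genes. Dnah8, a dynein heavy chain of the sperm tail with 26820 exonic bases, was at 270, 730 and 1119 CPM in wild-type and at 304, 587 and 965 CPM in knockout-labelled cells. Fsip2, of the fibrous sheath, was at 80.2, 236 and 393 CPM and at 41.3, 91.2 and 168 CPM. The acrosome list had medians of 0.19 and 0.26 and 1 of 13 lower in each library. Its member Acrbp, which binds proacrosin, was higher in cluster 22 without reaching the fold, at 690, 474 and 412 CPM and at 225, 132 and 100.2 CPM.

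Recombination, synapsis and division lists had medians near or above those of all genes. Recombination genes had 4 of 15 and 3 of 18 lower, with medians of -0.15 and 0.05, and the large genes Brca2 and Mlh3 were low in both. Brca2, which loads the recombinase on DNA, was at 20.5, 66.3 and 101 CPM in wild-type clusters 22, 0 and 5 and at 36.3, 57.7 and 91.2 CPM in the knockout-labelled ones. Synaptonemal complex and cohesin genes had 1 of 13 and 0 of 14 lower, with medians of 0.03 and -0.19. Division entry genes had 5 of 23 and 3 of 19 lower, with medians of 0.10 and 0.28. Pttg1, which encodes securin, was at 572, 349 and 304 CPM and at 210, 113 and 99.3 CPM, while Cdc25a, a phosphatase that activates cyclin-dependent kinases, was at 3.73, 11.2 and 18.8 CPM and at 3.48, 10.1 and 14.0 CPM. Transcription regulators had 3 of 13 lower in each library, near the 17.2% and 12.1% of all genes, with medians of 0.02 and -0.20. Among them was Sox30, an activator of spermatid genes, at 16.3, 53.5 and 75.4 CPM in wild-type and 14.9, 24.9 and 38.0 CPM in knockout-labelled cells. Of the list of ZFP541 and its partners, 0 of 5 were past the fold in either library, with medians of -0.39 and -0.20 and 4 of 5 below 0 in each.

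Ribosomal protein and proteasome lists were level or slightly higher. Cytosolic ribosomal protein genes had a median of 0.19 over 81 genes and 0.15 over 82, with 72 and 69 of them above 0; near-identical pseudogenes make single members uncertain. Proteasome genes had medians of 0.07 and 0.19, with Psmb3 at 319, 182 and 184 CPM and at 360, 208 and 168 CPM, and Psme4, an activator subunit with 8382 exonic bases, at 83.0, 151 and 184 CPM and at 32.8, 65.2 and 94.6 CPM. Heat shock and chaperone genes had 3 of 11 lower in wild-type cells (median -0.68) and 0 of 12 in knockout-labelled cells (median -0.26). Stress lists gave little: the amino acid and ER stress list had 3 measured genes with 0 past the fold, the p53 list 2 and 5 with 0, and no immediate early gene reached 10 CPM. Of 12 mitochondrially encoded genes, 3 were lower in wild-type (median -0.06) and 1 in knockout-labelled cells (median -0.28), where all 12 lay below 0. The gene lower in both was mt-Nd4l, at 150.5, 345 and 457 CPM and at 187, 308 and 586 CPM.

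Transcripts of the silenced X chromosome differed between the libraries. In wild-type cells the summed level of 1088 X-linked genes was 136 CPM in cluster 22 (interval 120 to 152), 131 in cluster 0 and 123 in cluster 5. In knockout-labelled cells it was 584 CPM (551 to 619), 445 and 269. Cluster 22 was 1.31 times (1.23 to 1.39) cluster 0 and 2.17 times (2.04 to 2.31) cluster 5 in that library, and 1.04 times (0.90 to 1.20) cluster 0 in wild-type cells. The sum did not rest on 1 gene: without Tsga8, the X-linked gene with most UMIs there, it was 547, 413 and 246 CPM. A UMI was seen for 268 X-linked genes in knockout-labelled cluster 22 and for 100 in the wild-type one, at similar total UMIs. The X-linked genes past the fold there, Prdx4, Usp26, Rpl39 and Slxl1, reached 10 CPM through cluster 22 alone, so their count supports nothing. Usp26, a germ cell deubiquitinase, was at 10.4, 5.71 and 1.86 CPM and Rpl39 at 15.9, 9.70 and 4.26 CPM, and both rested on under 40 UMIs in cluster 22.

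Between the libraries, within cluster 22, 1296 of 7189 genes were at least 2-fold higher in the knockout-labelled cells (18%) and 1090 at least 2-fold lower (15.2%), with a median log2 ratio of 0.07. Most of these genes were past the same fold in the neighbouring clusters: of the higher genes, 983 in cluster 0 and 935 in cluster 5, and of the lower genes, 933 and 924. Genotype, library, sorting and depth cannot be told apart here. The targeted gene Zfp541 (chromosome 7, 16061814 to 16096334) had 63 wild-type and 123 knockout-labelled UMIs in cluster 22, or 29.4 and 61.2 CPM, a log2 ratio of 1.05 (interval 0.61 to 1.52), so its level was not lower in the knockout-labelled cells. Where its deletion lies is not given, and 3' reads from outside the deleted part check nothing, so every direction below is that of the library labelled Zfp541-/-.

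**Figure D5:**
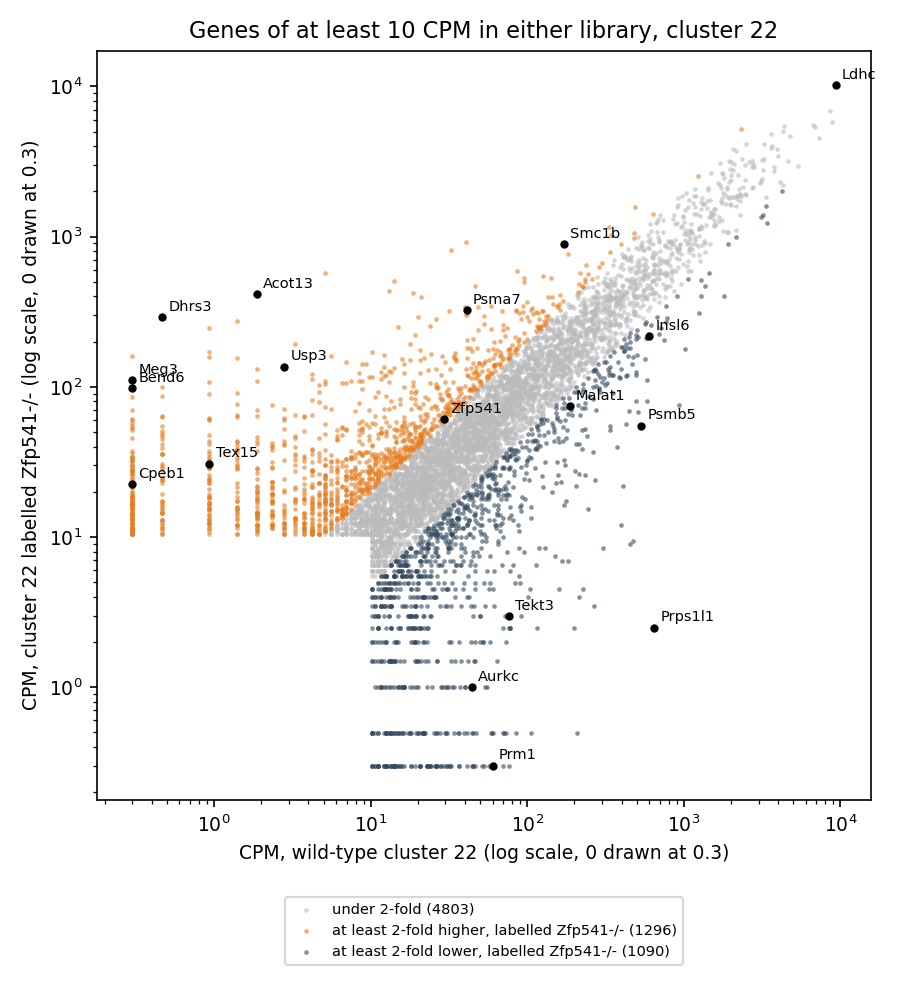
Level in CPM of each gene in cluster 22 of the wild-type library (x axis) and of the library labelled Zfp541-/- (y axis), both on log scales with a level of 0 drawn at 0.3, for genes of at least 10 CPM in either. Orange points are the 1296 genes at least 2-fold higher and dark points the 1090 genes at least 2-fold lower in the library labelled Zfp541-/-; Meg3 and Bend6 lie at 0 on the x axis and Prm1 at 0 on the y axis.

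Several genes were seen in only 1 library's cluster 22. Meg3, an imprinted long non-coding RNA, had 0 wild-type and 223 knockout-labelled UMIs (111 CPM), at least 79.4-fold higher when 3 counts are allowed for the 0. Bend6, a nuclear corepressor of Notch signalling, had 0 and 197 UMIs and was at least 70.1-fold higher, and Rcan3, a regulator of calcineurin, had 0 and 173 and was at least 61.6-fold higher. Acot5, a peroxisomal acyl-CoA thioesterase gene, had 0 and 104 UMIs and was at least 37.0-fold higher; it may share reads with close paralogs. Ina, a neuronal intermediate filament gene, Reep3, Bves, Cnp, Ankrd29, Lmx1b, Gm266 and the antisense transcript 3010003L21Rik also had 0 wild-type UMIs.

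Other high genes had some wild-type signal. Dhrs3, a retinal reductase, had 1 wild-type and 583 knockout-labelled UMIs, a log2 ratio of 8.70 with an interval from 6.80 to 14.59. Acot13, a mitochondrial thioesterase gene, was at 1.86 and 414 CPM, and Tmem160 had 2 and 494 UMIs, a log2 ratio of 7.72 (6.18 to 11.09). These genes were also high in the knockout-labelled clusters 0 and 5, with Dhrs3 at 246 and 196 CPM and Acot13 at 327 and 278 CPM. Smc1b, the meiotic cohesin subunit, was at 171 and 889 CPM, Tex15, which acts in recombination, at 0.93 and 30.9 CPM, and Mei1, needed for meiotic breaks, at 1.40 and 28.9 CPM. With 2 and 3 wild-type UMIs, the log2 ratios of Tex15 and Mei1 had wide intervals, 4.74 (3.13 to 8.13) and 4.16 (2.75 to 6.69). Recombination genes had 7 of 18 higher and 1 lower between libraries (median 0.76), against 18% and 15.2% of all genes, and members such as Tex15 and Mei1 were measured only through the knockout-labelled cells. Cpeb1, which controls polyadenylation of stored messages, had 0 and 45 UMIs.

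Lists of spermatid structures were near the background on the low side of knockout-labelled cluster 22: 6 of 32 flagellum and axoneme genes and 2 of 13 acrosome genes were at least 2-fold lower, against 15.2% of all genes. Single genes were much lower. Prps1l1, a testis form of phosphoribosyl pyrophosphate synthetase, had 1390 and 5 UMIs, with a log2 ratio of -7.89 (interval -9.65 to -6.80); it is a retrocopy, so that its reads may be shared with its parent genes. Aurkc, the meiotic Aurora kinase, had 95 and 2 UMIs, a log2 ratio of -5.16 (-8.54 to -3.58). Tekt3 and Tekt2, tektins of the flagellum, were at 76.0 and 2.99 and at 144 and 19.9 CPM, and Gykl1, a testis glycerol kinase, at 151 and 7.46 CPM. Acrbp lay on the same side, at 690 and 225 CPM, as did Insl6 at 599 and 217 CPM. Zfp423, a zinc finger transcription factor, and Orai1, a calcium channel, had 122 and 111 wild-type UMIs and none in the knockout-labelled cluster, at least 38.1-fold and 34.7-fold lower. Division entry genes had 6 of 20 lower and 1 higher, against 15.2% and 18% of all genes, with Ccna1, the germ cell cyclin A, at 28.4 and 6.47 CPM. Single proteasome genes differed both ways, with Psmb5 at 533 and 55.2 CPM and Psma7 at 41.0 and 324 CPM.

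Transcripts of late spermatids stand apart from these. Prm1, which packs sperm DNA, had 129 wild-type UMIs in cluster 22 (60.1 CPM) and 0 knockout-labelled ones, at least 40.3-fold lower, and Prm2, Tnp1 and Tnp2 had 89, 52 and 56 against 0. In wild-type cells, Prm1 was at 60.1 to 158 CPM in all 16 clusters from early pachytene to the first round spermatids and at 148398 CPM in the elongated spermatids. A low level was thus present in every one of these wild-type clusters, and whether free RNA from spermatids gave it was not tested. The knockout-labelled library held no annotated spermatids, and Prm1 was at 0 in all 15 of its clusters. Cluster 22 had the lowest Prm1 level of the wild-type clusters, with an interval of 50.2 to 71.4 CPM, next to 62.4 CPM in cluster 8 and 64.8 CPM in cluster 9. Stages before early pachytene were uneven the other way. Clusters of spermatogonia up to zygotene cells, of 218 to 882 cells each, reached 50 cells in the knockout-labelled library only. Summed spermatogonial markers came to 44.8 CPM in knockout-labelled cluster 22, while its wild-type counterpart had 7.92 CPM. Whether free RNA from such cells added to genes higher in knockout-labelled cluster 22, X-linked ones included, was not tested.

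Between the libraries, long genes were not low: genes of over 8000 exonic bases had a median of 0.30 and genes of at most 1000 had -0.33. Long intergenic RNAs had a median of -0.91 over 264 genes, with 49.2% at least 2-fold lower, against 15.2% of all genes. Of the 12 mitochondrially encoded genes measured, 7 were at least 2-fold higher in the knockout-labelled cluster, against 18% of all genes. Their median was 1.16, with mt-Nd2 at 125 and 549 CPM. The deposited mitochondrial percent had medians of 1.29% and 1.79% in these cells, against 1.27% and 2.16% in cluster 0. The X-linked genes Fmr1 and Ubl4a had 22 and 28 knockout-labelled UMIs and 0 wild-type ones, and so were measured only through the knockout-labelled cells.

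Some genes differed between libraries by another amount in cluster 22 than in clusters 0 and 5. Of 6889 genes measured in all 3 clusters, 117 had a log2 ratio higher by at least 1 than in each of clusters 0 and 5, and 66 had one lower by at least 1. Of these, 70 and 22 had at least 4 UMIs in all 6 groups of cells, a limit set after the values were seen. Usp3, a deubiquitinase of histones, was among the 70 with a larger ratio, at 2.80 and 136 CPM in cluster 22, 15.8 and 175 CPM in cluster 0 and 15.9 and 204 CPM in cluster 5. Depdc5, a GATOR1 subunit like Nprl2, was at 3.73 and 13.4 CPM in cluster 22, against 16.2 and 16.3 CPM in cluster 0. On the lower side, Exd1, a piRNA biogenesis protein, was at 19.6 and 5.97 CPM in cluster 22, against 19.3 and 18.8 CPM in cluster 0. Itsn1, an endocytic scaffold, was at 16.3 and 4.98 CPM against 17.0 and 14.4 CPM, and Sec14l1 was at 33.6 and 6.97 CPM against 38.3 and 22.1 CPM. The lower side in cluster 22 rested on few UMIs, 6 for Usp3 and 8 for Depdc5 in wild-type cells. For Exd1, Itsn1 and Sec14l1 it was 12, 10 and 14 in knockout-labelled cells. All 5 genes were picked from the extremes of this same difference. Whether any of these differences goes with genotype was not tested, since each genotype has 1 library.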

How the data were processed

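The deposited matrices hold UMI counts per gene and cell barcode for 2 libraries, made with Cell Ranger 3.1.0 on mm10 per the submitters' processing notes, which also name Seurat 3.2.0. The authors' table gives, per the file headers, each cell's UMI count, mitochondrial and ribosomal percent, cluster, stage name and a pseudotime score, with no source saying how the score or the names were made. Their treatment of doublets is not given, and no doublet caller was run.

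UMIs were summed per gene, cluster and library, scaled to CPM and compared as log2 ratios with 0.5 counts added. A gene counted as measured at 10 CPM or more on the higher side and as called at a 2-fold difference. Intervals are exact Poisson for a level and exact conditional binomial for a ratio, at 95%, for counting error only. A 0 was allowed 3 counts. The scripts were tested on simulated data. Exonic length is the union of all exons in GENCODE M21 (GRCm38), which matched 31011 of 31053 gene IDs. Symbols held by more than 1 ID numbered 35.

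Members, lists and comparisons were chosen with earlier results of these data known. Named genes are the 3 markers, the 12 with the largest and the 12 with the lowest ratio per library among genes called against clusters 0 and 5 separately with at least 20 UMIs, the 15 each way between libraries, the 8 each way whose library ratio differs most in cluster 22, and up to 4 per list. Whether counting used strand is not stated, so antisense genes and their partners, like near-identical copies, may share reads. The genes Nprl2, Rogdi, Usp3, Depdc5, Exd1, Itsn1 and Sec14l1 were named after their values were seen. Analyses used Python 3.11.15, NumPy 2.4.6, SciPy 1.17.1, pandas 2.3.3 and matplotlib 3.10.9.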

Additional observations from a re-analysis of the deposited data

How the results depend on the processing

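Counts past the fold depended on the settings more than the directions of large ratios did. No named gene that was at least 2-fold apart in the main run changed direction under any alternative run. Smaller ratios were not checked for a change of sign, so some that are counted as alike or moved may have changed it. Of the values of named genes under alternatives, 4135 stayed alike and 237 moved in size, without a comparison to counting error. With a minimum of 50 CPM, 10 genes were higher and 476 lower in wild-type cluster 22, 3 and 355 in the knockout-labelled one, and 450 and 395 between libraries. With no CPM minimum and 20 UMIs, the knockout-labelled library gave 412 higher and 1800 lower, so that 18.6% of its called genes were higher against 3.30%. Against cluster 0 alone, 28 genes were higher and 717 lower in the wild-type and 13 and 316 in the knockout-labelled library; against cluster 5 alone, 144 were higher in the wild-type library, and 89 higher and 1446 lower in the other. Thinned cells gave 66 and 84 higher, and median-of-ratios scaling gave 48 higher in the knockout-labelled library. Cluster 0 cells at matched pseudotime, an alternative chosen after seeing the data, left 16 higher and 351 lower there. The median of genes of over 8000 exonic bases stayed between -1.09 and -0.73 in the wild-type and between -1.004 and -0.57 in the knockout-labelled library. List medians were checked for a change of sign only where the main value was not near 0. Those that changed sign were the acrosome in the wild-type library with no CPM minimum (-0.0157), recombination there against cluster 0 alone (0.0116), and in the knockout-labelled library the synaptonemal complex list against cluster 0 alone (0.0647) or at matched pseudotime (0.0726) and the ZFP541 list at matched pseudotime (0.0623). Another 54 list medians under alternatives moved in size, and 555 stayed alike. The causes were not tested. No paired analysis was possible because each genotype has 1 library. Depth limits genes of few UMIs: 1 UMI was worth 0.992 CPM in wild-type cluster 5.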
